A study of Mus musculus with 6 samples.

Results

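Eph receptors are receptor tyrosine kinases, and ephrins are their membrane-bound ligands. The results concern 10 genes of this family in cultured mouse podocytes (MPCs): 4 receptors (*Epha2*, *Ephb2*, *Ephb3* and *Ephb4*) and 6 ephrins (*Efna1*, *Efna2*, *Efna3*, *Efna5*, *Efnb1* and *Efnb2*). Members were chosen by gene symbol among the 24469 loci of the expression table, and for a symbol found at more than 1 locus, the row was selected on the highest mean FPKM (fragments scaled to transcript length and library size) over the 6 libraries. The complete mouse family has 22 genes, 14 receptors and 8 ephrins, and the other 12 are described beside the members.

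The series asks how wild-type FGF1 (rFGF1 WT) and a mutant with altered heparan sulfate binding (rFGF1 ΔHBS) change mRNA in podocytes kept in high glucose. All cells came from 1 murine podocyte line, grown at 33 °C in 5.5 mM glucose with 10% serum and interferon gamma at 50 U/mL. The cells were differentiated without interferon gamma at 37 °C for 10 days. They were then starved of serum for 12 h. The HG group was placed in 25 mM glucose for 12 h with no pretreatment, and the rFGF1 WT and rFGF1 ΔHBS groups received 100 ng/mL of the protein for 1 h before the same glucose exposure. Each group has 2 libraries, 6 in all, and no group was kept in normal glucose, so no value below shows an effect of glucose. The labels do not say that the replicates were separate cultures, and p-values then measure only the spread between these samples, which may be technical.

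A-type ephrins are tethered to the membrane by a lipid anchor and mostly bind EphA receptors, while B-type ephrins span the membrane and mostly bind EphB receptors. Because both partners sit on cell surfaces, binding occurs at cell contacts, and it signals into the receptor cell and also back into the ephrin cell. The family guides axons and vessels and sets cell adhesion, repulsion and the actin cytoskeleton; in the kidney glomerulus, ephrin-B proteins have been described in podocytes.

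The podocyte label was compared with 10 podocyte markers, of which 9 were analysed here. Of these, 5 had a mean FPKM of at least 1, led by *Actn4* at 96.6, with *Cd2ap*, *Podxl*, *Kirrel* and *Synpo*. The defining markers *Wt1* and *Ptpro* were under 0.1 FPKM, and *Tcf21* was not analysed here. *Nphs1* was low, at 0.618 to 0.942 FPKM in the 6 libraries, and was not tested. The summed podocyte list was 185 and 180 FPKM in HG, 231 and 232 in rFGF1 WT, and 211 and 223 in rFGF1 ΔHBS. At adjusted p under 0.05, 1 of the 5 tested podocyte markers was higher with rFGF1 WT, where 3.26% of all tested loci were. With rFGF1 ΔHBS 0 were higher, where 3.37% of tested loci were. With either protein 0 were lower (2.94% and 2.89% of tested loci). Single-gene differences here and below are in log2(FPKM + 1). *Kirrel* was higher by 1.24 with rFGF1 WT, which passed, and by 0.88 with rFGF1 ΔHBS, which did not (limma adjusted p = 0.0483 and 0.0899). *Actn4* lay above HG in every FGF1 library without passing, at 86.4 and 83.2 FPKM in HG and 99.7 to 106 in the others (adjusted p = 0.0701 and 0.0631), as did *Cd2ap*, at 55.9 and 51.3 in HG and 58.3 to 76.2 in the others. Other markers of the list lay lower than in HG in every FGF1 library without passing: *Synpo* was 9.58 and 10.2 FPKM in HG, 5.45 and 4.01 after rFGF1 WT, and 4.84 and 6.83 after rFGF1 ΔHBS (limma adjusted p = 0.0787 and 0.131), and *Podxl* was 16.7 and 17.6 in HG and 14.8 to 15.8 in the FGF1 libraries. *Wt1* and *Ptpro* do not mark the cells, and *Nphs1* was present only at a low level. The cells are called MPCs here after their label alone.

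Markers of other kidney cells were read in the same way. The 6 endothelial markers were all under 0.1 FPKM, with sums between 0.0712 and 0.185. Of 6 tubule markers, 4 were analysed here, and *Cdh16* (77.4 FPKM on average) with *Lrp2* carried the sum, which was 114 and 123 FPKM in HG, 94.3 and 93.0 in rFGF1 WT, and 91.1 and 96.3 in rFGF1 ΔHBS. Both genes were lower than in HG in every FGF1 library and neither passed (limma adjusted p = 0.0846 and 0.075 for *Cdh16*, 0.0766 and 0.102 for *Lrp2*); *Slc12a1* and *Aqp2* were near 0. Among 6 mesangial or fibroblast markers, 3 reached 1 FPKM, led by *Pdgfrb* at 28.6, and the sum ranged from 42.4 to 48.0. Its tested genes lay on different sides of HG in every FGF1 library, and none passed: *Pdgfrb* was 31.8 and 32.7 FPKM in HG and 26.1 to 27.5 in the others (limma adjusted p = 0.0795 and 0.0756), *Col1a1* was 2.04 and 2.21 against 1.41 to 1.72, and *Acta2* was 10.8 and 12.7 against 14.1 to 17.7 (adjusted p = 0.0559 and 0.171). Among 6 macrophage markers, *Ptprc*, *Adgre1*, *Lyz2* and *Itgam* were under 0.1 FPKM, and *Cd68* lies in a locus merged with *Eif4a1*. That merged locus rose by 0.32 with rFGF1 WT and by 0.37 with rFGF1 ΔHBS (limma adjusted p = 0.0496 and 0.0363), and fragments of its 2 genes cannot be told apart. It sets the list's sum, which was 62.8 and 60.9 FPKM in HG, 69.6 and 66.9 in rFGF1 WT, and 71.2 and 71.1 in rFGF1 ΔHBS. *Csf1r*, the receptor for macrophage colony-stimulating factor and the other tested gene of the list, fell with both proteins, from 9.56 and 10.7 FPKM in HG to 3.21 and 3.68 under the wild-type protein, and to 3.93 and 3.76 under the mutant (limma adjusted p = 0.0114 and 0.014). The part of these markers in the changes below was not tested, and in bulk RNA fewer cells of a type cannot be told apart from less RNA per cell.

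All 10 members had a mean FPKM of at least 1, as did 10562 loci in all. Against HG, adjusted p was under 0.05 with a higher value for 2 of 10 members with rFGF1 WT, *Epha2* and *Efnb2*, where 3.26% of all tested loci were higher, and for the same 2 members with rFGF1 ΔHBS, where 3.37% were. A lower value passed for 0 of 10 members with rFGF1 WT (2.94% of tested loci) and 0 of 10 with rFGF1 ΔHBS (2.89%). With a change of at least 2-fold required as well, 1 of 10 members, *Epha2*, passed with rFGF1 WT (1.01% of tested loci) and 1 of 10, again *Epha2*, with rFGF1 ΔHBS (0.899%). Between the 2 proteins, limma called 0 of 10 members at adjusted p under 0.05 (0.549% of tested loci), 0 of 10 with 2-fold added (0.35%), and 0 of 10 at an unadjusted p under 0.05, which 514 of the 10562 tested loci reached. At an unadjusted p under 0.05, 6 members passed in each comparison with HG, as did 2616 tested loci with rFGF1 WT and 2632 with rFGF1 ΔHBS. The 2 HG libraries serve in both comparisons, whose likeness is therefore not independent.

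Over the 10 members the median log2 fold change came to 0.08 for rFGF1 WT and to -0.04 for rFGF1 ΔHBS, beside -0.04 and -0.04 over all tested loci. Over the 13 tested genes of the whole family, which adds *Epha4*, *Epha7* and *Efna4*, it came to -0.03 and -0.16. In each comparison with HG 5 members were higher and 5 lower, a count of signs that includes differences near 0. With rFGF1 WT, *Ephb3* (-0.05) and *Efna3* (-0.03) turn to the other sign, at 0.00 to 0.02, under both rescalings of the libraries. Without regard to size, all 4 FGF1 libraries lay above both HG libraries for 3 of 10 members (*Epha2*, *Efna5* and *Efnb2*), as for 17.1% of tested loci, and below both for 3 of 10 (*Ephb2*, *Ephb4* and *Efna2*), as for 25.5%. Of the 13 tested family genes, 3 lay above and 5 below, the latter with *Epha4* and *Efna4*. With 2 libraries a group, an exact two-sided permutation test between 2 groups cannot go below p = 0.333, so the tests rest on the spread shared across loci by limma.

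**Figure D1:**
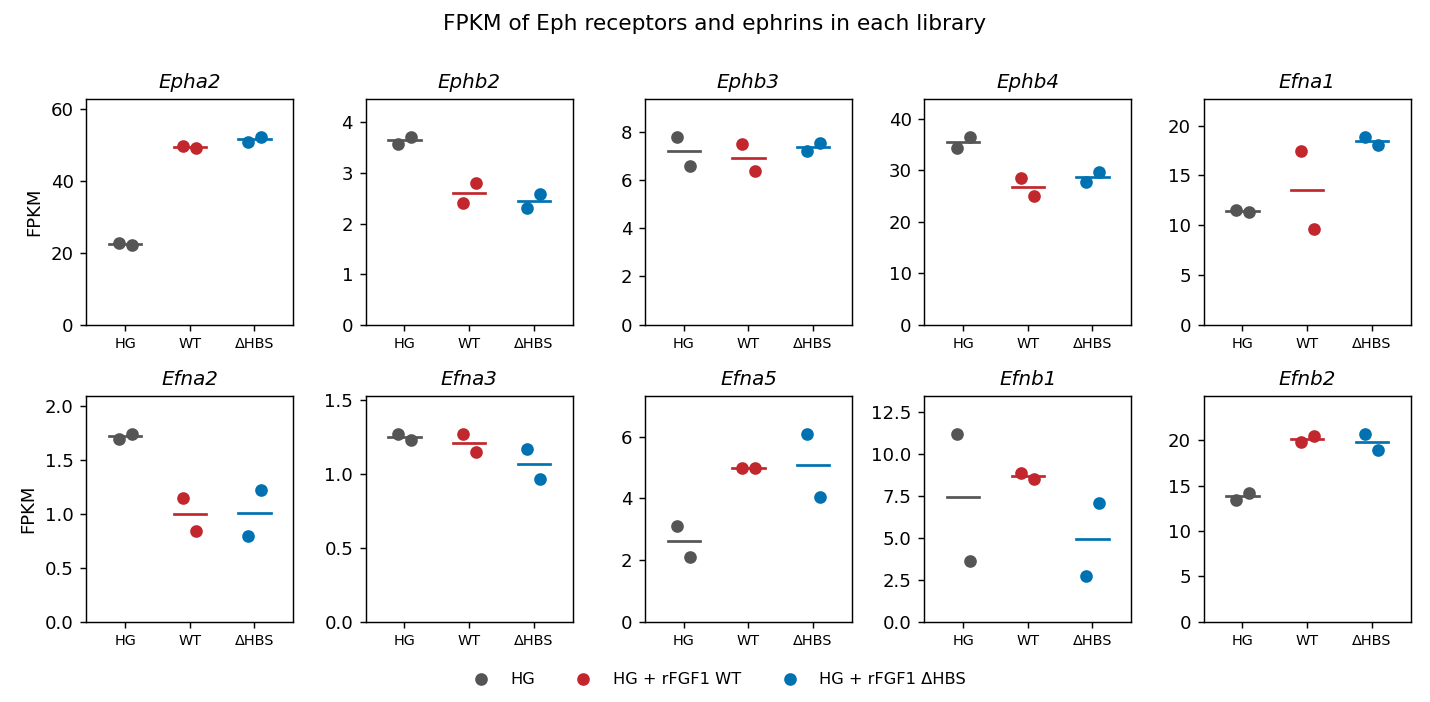
FPKM of the 10 members in each library. Each panel is 1 gene with its own y axis from 0, points are libraries (2 per group), horizontal lines are group means. *Epha2* stands at 22.2 to 22.6 in HG and at 49.1 to 52.4 in the 4 FGF1 libraries, while the 2 libraries of a group lie far apart for *Efnb1* in HG and with rFGF1 ΔHBS, and for *Efna1* with rFGF1 WT.

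*Epha2* encodes a receptor that binds A-type ephrins and is abundant in epithelial cells. Its locus lies at chr4:141301240-141329384 on the plus strand (GENCODE M21, GRCm38). *Epha2* was 22.6 and 22.2 FPKM in HG, 49.9 and 49.1 after rFGF1 WT, and 50.8 and 52.4 after rFGF1 ΔHBS. Both HG libraries were lowest, and the libraries of the 2 proteins lay next to each other without overlapping. The means were 22.4 ± 0.301, 49.5 ± 0.586 and 51.6 ± 1.15 (SD, n = 2 each), 2.21-fold HG with rFGF1 WT and 2.30-fold with rFGF1 ΔHBS. Fold changes below are differences in log2(FPKM + 1), a measure that is smaller than the true change for low genes. *Epha2* rose by 1.11 (SE 0.05, limma adjusted p = 0.00345) with rFGF1 WT and by 1.17 (SE 0.05, adjusted p = 0.00392) with rFGF1 ΔHBS. The difference between the proteins was 0.06 (95% interval -0.06 to 0.18, adjusted p = 0.905). Under all 14 alternative settings *Epha2* stayed under an adjusted p of 0.05 in both comparisons with HG.

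*Ephb2*, a receptor for B-type ephrins, was 3.57 and 3.72 FPKM in HG, 2.40 and 2.81 after rFGF1 WT, and 2.30 and 2.58 after rFGF1 ΔHBS. Both HG libraries were above the other 4, but the differences of -0.37 and -0.43 had limma adjusted p of 0.111 and 0.0812. *Ephb4*, the main receptor for ephrin-B2, was 34.3 and 36.5 FPKM in HG, 28.4 and 25.0 after rFGF1 WT, and 27.7 and 29.6 after rFGF1 ΔHBS. It too was highest in HG without overlap, with differences of -0.40 (SE 0.08, adjusted p = 0.081) and -0.30 (SE 0.08, adjusted p = 0.13) that did not pass. *Ephb3* was 7.80 and 6.58 FPKM in HG, 7.49 and 6.37 after rFGF1 WT, and 7.20 and 7.53 after rFGF1 ΔHBS. The 3 groups of *Ephb3* overlapped, and its differences from HG, -0.05 after the wild-type protein and 0.03 after the mutant, did not pass (limma adjusted p = 0.839 and 0.89).

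Among the receptors, *Ephb4* was the most abundant in HG (35.4 FPKM on average) and *Epha2* came next, while with either protein *Epha2* was first and *Ephb4* next, in libraries that did not overlap. *Epha2* was 29.6 and 28.9% of the summed receptor FPKM in HG, 53.4 and 55.9% after rFGF1 WT, and 55.1 and 53.9% after rFGF1 ΔHBS. The ratio of *Epha2* to *Ephb4* FPKM was 0.660 and 0.608 in HG and between 1.76 and 1.96 in the 4 FGF1 libraries. The summed receptor FPKM was 76.6 and 76.9 in HG, 93.4 and 87.8 after rFGF1 WT, and 92.2 and 97.3 after rFGF1 ΔHBS. These shares and ratios hold both the rise of *Epha2* and the lower values of other receptors, such as *Ephb4* and *Epha4*, and were not tested.

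**Figure D2:**
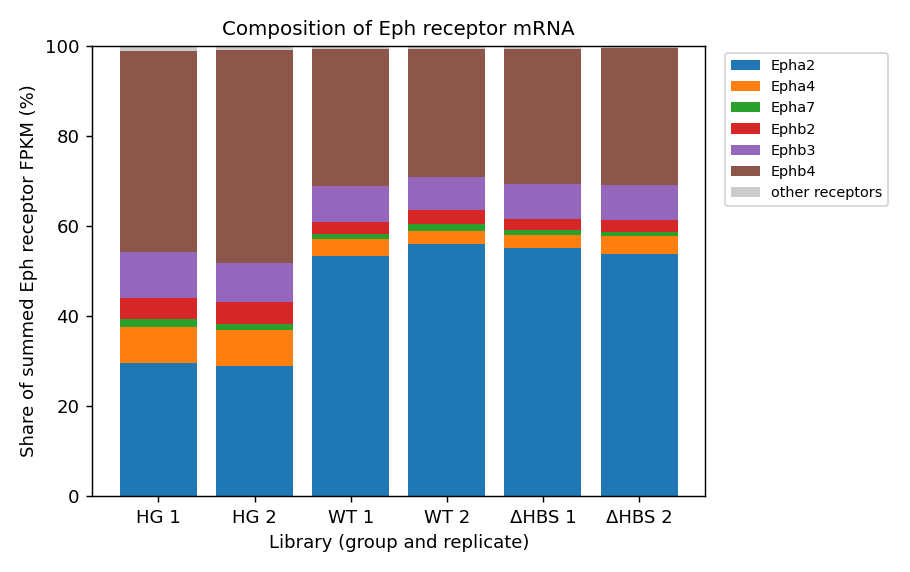
Share of summed Eph receptor FPKM (%, y axis) held by each receptor in each library (x axis, group and replicate). Bars are stacked to 100%, and grey holds the receptors with a mean FPKM under 1. *Epha2* takes 28.9 to 29.6% in HG and 53.4 to 55.9% in the FGF1 libraries.

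*Efna1*, an A-type ephrin and a ligand of EphA2, was 11.5 and 11.3 FPKM in HG, 17.5 and 9.62 after rFGF1 WT, and 18.9 and 18.1 after rFGF1 ΔHBS. The rFGF1 WT libraries lie on either side of HG, and both rFGF1 ΔHBS libraries are above it. Neither difference passed, at 0.18 (SE 0.28, limma adjusted p = 0.73) and 0.66 (SE 0.28, adjusted p = 0.247). The rFGF1 WT difference was -0.22 (adjusted p = 0.239) without rFGF1 WT replicate 1 and 0.58 (adjusted p = 0.0693) without rFGF1 WT replicate 2. The rFGF1 ΔHBS difference passed in 3 of 14 alternative settings, those without rFGF1 WT replicate 1, without rFGF1 WT replicate 2 or with only the libraries compared, where adjusted p was as low as 0.0493.

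*Efna2* and *Efna3*, also A-type ephrins, were near the lower limit of testing. *Efna2* was 1.69 and 1.74 FPKM in HG, 1.15 and 0.841 after rFGF1 WT, and 0.792 and 1.22 after rFGF1 ΔHBS. HG was higher than the other libraries without overlap, and the differences of -0.45 and -0.45 had limma adjusted p of 0.174 and 0.175. With a pseudocount of 0.1 both were -0.74, and without rFGF1 ΔHBS replicate 1 the rFGF1 ΔHBS difference was -0.29, with adjusted p from 0.152 to 0.393 over the alternatives of both. *Efna3* was 1.27 and 1.23 FPKM in HG, 1.27 and 1.15 after rFGF1 WT, and 1.17 and 0.964 after rFGF1 ΔHBS. The rFGF1 WT libraries overlap HG, both rFGF1 ΔHBS libraries lie below it, and neither difference passed (-0.03 and -0.12, limma adjusted p = 0.892 and 0.495). The rFGF1 ΔHBS difference was -0.20 without rFGF1 ΔHBS replicate 1, -0.05 without rFGF1 ΔHBS replicate 2 and -0.22 with a pseudocount of 0.1. An estimated 39 to 83 fragments a library lie behind *Efna2* and 52 to 69 behind *Efna3*, against 1946 to 4635 for *Epha2*.

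*Efna5* has 2 loci. The one with the higher mean holds a single assembled transcript with no Ensembl identifier, and its position was not given in the table. It was 3.12 and 2.09 FPKM in HG, 5.0 and 4.98 after rFGF1 WT, and 6.10 and 4.04 after rFGF1 ΔHBS. The other locus, which holds the Ensembl transcripts (chr17:62604184-62881317, minus strand), was 1.43 and 1.73 FPKM in HG, 2.54 and 2.82 after rFGF1 WT, and 2.77 and 2.64 after rFGF1 ΔHBS. At both loci HG was below every FGF1 library. None passed: the differences were 0.75 and 0.74 at the first locus (limma adjusted p = 0.147 and 0.144) and 0.51 and 0.52 at the other (0.0636 and 0.0594).

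*Efnb1*, a transmembrane ephrin, was 11.2 and 3.64 FPKM in HG, 8.87 and 8.52 after rFGF1 WT, and 2.75 and 7.09 after rFGF1 ΔHBS. The HG libraries differ by more than any group means do, and the 95% interval of the rFGF1 WT difference runs from -1.25 to 1.99. No direction can be read for *Efnb1* at this spread.

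*Efnb2*, a transmembrane ligand of EphB4 and the most abundant ephrin, lies at chr8:8617434-8661242 on the minus strand. It was 13.4 and 14.2 FPKM in HG, 19.8 and 20.5 after rFGF1 WT, and 20.7 and 18.9 after rFGF1 ΔHBS. Both HG libraries were below the other 4, and the 2 proteins overlapped. *Efnb2* rose by 0.52 (SE 0.07, limma adjusted p = 0.0314) with rFGF1 WT and by 0.49 (SE 0.07, adjusted p = 0.0353) with rFGF1 ΔHBS, 1.46-fold and 1.44-fold on group means. The call is close to its threshold. It held in 5 of 14 alternative settings in each comparison, and leaving out any single library ended it, with adjusted p up to 0.122 and 0.131 over the alternatives, while the difference stayed between 0.48 and 0.57 and between 0.43 and 0.55.

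**Figure D3:**
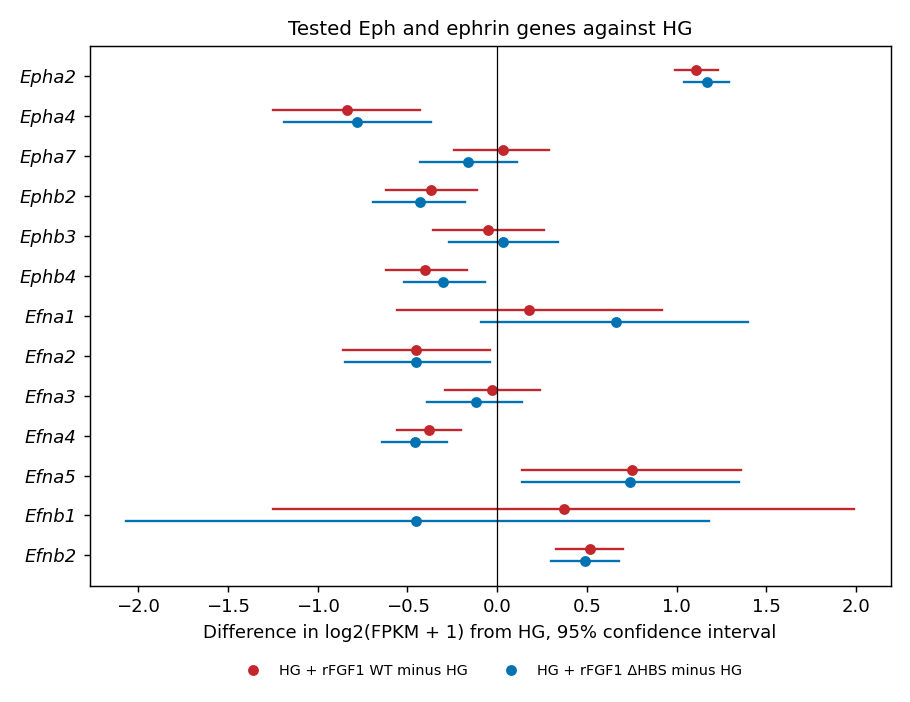
Difference from HG in log2(FPKM + 1) for the 13 family genes tested (y axis), with rFGF1 WT in red and rFGF1 ΔHBS in blue. Points are limma estimates from 2 libraries a group and lines are unadjusted 95% confidence intervals. *Epha2* is farthest right at 1.11 and 1.17, and *Epha4* is farthest left at -0.84 and -0.78.

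Of the other 12 family genes, 3 were tested: *Epha4*, *Epha7* and *Efna4*. *Epha4*, a receptor that binds both classes of ephrin, was 6.25 and 6.21 FPKM in HG, 3.41 and 2.68 after rFGF1 WT, and 2.76 and 3.71 after rFGF1 ΔHBS. Its HG libraries were above the other 4 without overlap, and the differences of -0.84 (SE 0.15) and -0.78 (SE 0.15) had limma adjusted p of 0.0581 and 0.0659, just outside the threshold. *Efna4* was 11.8 and 11.9 FPKM in HG, 9.33 and 8.47 after rFGF1 WT, and 8.18 and 8.53 after rFGF1 ΔHBS. *Efna4* fell by 0.46 with rFGF1 ΔHBS (SE 0.07, adjusted p = 0.0376), while with rFGF1 WT the difference was -0.38 (adjusted p = 0.0562), passing in 1 of 14 alternatives, the filter at 5 FPKM (adjusted p = 0.0461). The difference between the proteins for *Efna4* was -0.08 (limma adjusted p = 0.91). It was -0.02 without rFGF1 WT replicate 1 and -0.14 without rFGF1 WT replicate 2. The call of *Efna4* with rFGF1 ΔHBS held in 5 of 14 alternatives. It was lost with no filter, with only the libraries compared, with the replicate block and when any 1 library was left out. Over all alternatives that difference stayed between -0.50 and -0.42. *Epha7* was between 0.849 and 1.24 FPKM in the 6 libraries. The other 9 genes were below 1 FPKM on average, with *Efnb3* at 0.690, *Ephb6* at 0.343 and *Ephb1* at 0.155, and *Epha1*, *Epha3*, *Epha5*, *Epha6*, *Epha8* and *Epha10* at 0.0597 or less.

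*Efna1*, *Efna3* and *Efna4* are neighbours on chromosome 3, all on the minus strand. In GENCODE M21, 32756 bases separate *Efna1* from *Efna3* and 10424 separate *Efna3* from *Efna4*, with 0 protein-coding genes in either gap. In both rFGF1 ΔHBS libraries *Efna1* was above HG while *Efna3* and *Efna4* were below it. With rFGF1 WT the *Efna1* libraries lay on either side of HG, at 17.5 and 9.62 FPKM, *Efna3* overlapped HG, and *Efna4* was below it. Of these differences only that of *Efna4* with rFGF1 ΔHBS passed, and the 3 genes were not tested against each other.

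The Eph pathway list of 55 genes in 6 roles, chosen by symbol, had 48 genes tested. With rFGF1 WT 2 were higher and 0 lower at adjusted p under 0.05, where 3.26% and 2.94% of all tested loci were, and with rFGF1 ΔHBS 1 was higher and 0 lower, where 3.37% and 2.89% were. These counts are near the background. Its median log2 fold change was 0.04 and -0.02, beside -0.04 and -0.04 over all tested loci. *Ptpn13*, a tyrosine phosphatase with PDZ domains that acts on ephrin-B proteins, was 49.1 and 49.0 FPKM in HG, 71.7 and 74.2 after rFGF1 WT, and 77.2 and 78.1 after rFGF1 ΔHBS. *Ptpn13* rose by 0.56 (limma adjusted p = 0.013) and by 0.65 (adjusted p = 0.0115). *Fyn*, a Src-family kinase, was 11.8 and 12.0 FPKM in HG, 15.2 and 15.9 under the wild-type protein, and 15.6 and 14.7 under the mutant, with differences of 0.36 (adjusted p = 0.0488) and 0.32 (adjusted p = 0.0593). *Adam10*, a protease that cleaves ephrins, was 43.5 and 44.9 FPKM in HG and 38.0 to 41.4 in the FGF1 libraries. It lay below HG in each of them without passing (-0.19 and -0.15, limma adjusted p = 0.164 and 0.232). *Ptpro*, a phosphatase of podocytes that acts on Eph receptors, was under 0.1 FPKM. By role, the exchange factors and GAPs, the ephrin-B PDZ partners, the proteases and ubiquitin ligases and the cytoskeletal effectors each had 0 genes past the threshold.

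Of 4 tested housekeeping genes, 1 was higher with rFGF1 WT at adjusted p under 0.05, where 3.26% of all tested loci were, and 0 with rFGF1 ΔHBS, where 3.37% were; 0 were lower with either protein. *Actb* was 857 and 1078 FPKM in HG, 1788 and 1699 after rFGF1 WT, and 1507 and 1723 after rFGF1 ΔHBS, a difference of 0.86 (limma adjusted p = 0.045) and 0.74 (adjusted p = 0.0574). *Hprt*, *Tbp* and *Gapdh* did not pass; the differences of *Hprt* and *Tbp* were at most 0.29, and *Gapdh* varied between replicates, from 27.4 to 45.3 FPKM in HG.

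The loci whose pattern was closest to that of *Epha2*, by Euclidean distance of centred log2(FPKM + 1) over 6 libraries among 10210 loci, were *Cd9* (distance 0.126), *Dusp5* (0.139), *Itga3* (0.14), *Tmsb4x* (0.143) and *Cyr61* (0.144). For *Efnb2* they were *Acer3* (0.0717), *Met* (0.0769), *Pnp2* (0.0807), *Ugcg* (0.0809) and *Rnd3* (0.0923).

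Promoter windows of 300 bases around gene starts, from RefSeq (GRCm38.p6), matched all 10 members and 21 of the 22 family genes, in 24 windows. Searched on both strands, the AP-1 motif TGANTCA, the ETS motif CCGGAAGT and the CArG box were each in 0 of the 24 windows, while 7.81%, 3.89% and 1.63% of all 32851 windows held them. No match says only that these letters are not in these windows. The bases G and C made up 54.7 to 84.3% of the family windows, against a median of 52.7% over all windows. The shares over all windows are therefore not matched for base composition, and depletion in the family was not tested. After values had been seen, the shorter core GGAA was also counted; the *Epha2* window holds 6, and 15.7% of all windows hold at least as many (median 3), while the *Efnb2* window holds 1. The windows of the 2 members that passed the test are printed 5′ to 3′ on the gene's strand, with capitals marking GGAA or, for a match on the opposite strand, TTCC.
Epha2, chr4:141300971-141301270, plus strand: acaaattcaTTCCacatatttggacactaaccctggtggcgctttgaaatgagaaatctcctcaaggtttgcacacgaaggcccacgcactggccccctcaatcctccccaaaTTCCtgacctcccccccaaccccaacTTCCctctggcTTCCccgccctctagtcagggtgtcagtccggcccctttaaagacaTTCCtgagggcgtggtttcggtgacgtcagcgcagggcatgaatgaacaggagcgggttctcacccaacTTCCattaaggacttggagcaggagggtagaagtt
Efnb2, chr8:8661193-8661492, minus strand: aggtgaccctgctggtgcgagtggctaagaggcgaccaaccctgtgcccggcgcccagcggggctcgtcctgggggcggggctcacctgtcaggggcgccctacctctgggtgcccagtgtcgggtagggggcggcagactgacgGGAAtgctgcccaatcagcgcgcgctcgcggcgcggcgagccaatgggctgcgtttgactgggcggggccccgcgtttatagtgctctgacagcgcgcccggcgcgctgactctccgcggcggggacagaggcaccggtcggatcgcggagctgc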

How the data were processed

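Paired-end reads of poly(A) RNA were turned by the authors into FPKM per locus, the deposited unit; the submitters' processing notes name HISAT2 2.0, StringTie 1.3.0, Bowtie 0.12.2 and the mm8 build, with no role given. The table holds no coordinates, and those printed come from GENCODE M21 (GRCm38) through Ensembl transcripts, of which 99.6% were found. The members and gene lists were chosen with earlier results of these data known.

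From the FPKM, log2(FPKM + 1) of the 10562 loci whose FPKM averaged 1 or more was fitted with limma 3.58.1 (trend, all 6 libraries, 3 residual degrees of freedom) in R 4.3.3, with Benjamini-Hochberg adjustment over all tested loci. The fit was tested on simulated data. Named genes were the members, the rest of the family, and pathway genes past the threshold with Ptpro and Adam10. Others were the 5 loci nearest in pattern to Epha2 and to the most abundant ephrin, housekeeping genes and markers from the cell type lists. Which markers are described singly was chosen after values were seen, as was Eif4a1, named for its locus merged with Cd68. Values of low loci with 1 Ensembl transcript lay within 0.02 of a whole number of steps for 31 to 33.2% (4% if spread evenly), from which 22300000 to 23200000 fragments a library were estimated; fragments behind a gene are FPKM times the longest Ensembl transcript over that step. Most low values lay off the steps, so these are rough estimates and no count test was run. Some genes of the marker and housekeeping lists are not reported here. Alternatives changed the pseudocount, filter, scaling, libraries, block and loci of a symbol.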

Additional observations from a re-analysis of the deposited data

How the results depend on the processing

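Over 14 alternative settings, the single-gene differences of the 13 tested family genes gave 528 values, of which 473 kept their direction and side of the threshold, 27 lost the call, 4 gained it (Efna1 with rFGF1 ΔHBS in 3 settings, Efna4 with rFGF1 WT under the filter at 5 FPKM) and 24 changed sign. Every change of sign concerned a difference that did not pass, and the cause was not tested. Epha2 kept its call against HG throughout. Loci passing both adjusted p under 0.05 and 2-fold with rFGF1 WT against HG (107) were 152 with a pseudocount of 0.1. They were 69 under a filter at 5 FPKM and 39 with the replicate block. With rFGF1 ΔHBS against HG (95) they were 151 with a pseudocount of 0.1 and 36 with the block. Between the proteins (37) they were 18 under a filter at 5 FPKM, 6 with the block, and 43 to 103 when 1 library was left out. The members with adjusted p under 0.05 at any size against HG (2 with either protein) were 1 with no filter and with the block, and 1 with rFGF1 WT when only the 4 libraries compared were fitted. With 1 library left out they were 1 to 1 with rFGF1 WT and 1 to 2 with rFGF1 ΔHBS, where Efna1 passed and Efnb2 did not once an rFGF1 WT library was left out. A group left with 1 library is assumed to vary like the others. Replicate numbers share only a number: deviations of same-numbered libraries correlated at -0.0212, 0.098 and -0.0467, and the block uses up a degree of freedom.

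Sign changes came from rescaling, from summing loci or from leaving out 1 library. Ephb3 with rFGF1 WT was 0.00 under median-ratio scaling and 0.00 under quantile normalization, Efna3 with rFGF1 WT was 0.00 and 0.02, and Efna2 between the proteins was 0.00 under median-ratio scaling. Efna5 between the proteins was 0.01 when its loci were summed. With 1 library left out, differences from HG ranged from -0.15 to 0.06 for Ephb3, -0.04 to 0.09 for Epha7, -0.22 to 0.58 for Efna1, -0.07 to 0.01 for Efna3 and -0.33 to 1.06 for Efnb1 with rFGF1 WT, and from -0.07 to 0.14 for Ephb3 and -1.14 to 0.25 for Efnb1 with rFGF1 ΔHBS. Between the proteins they ranged from -0.10 to 0.23 for Epha4, -0.15 to 0.02 for Ephb2, -0.02 to 0.18 for Ephb3, -0.15 to 0.16 for Efna2, -0.25 to 0.25 for Efna5 and -0.09 to 0.04 for Efnb2.

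FPKM gives no counts, so members with few fragments, such as Efna2 and Efna3, are limited by counting error that the fit cannot separate from other spread.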
